A study of Rattus norvegicus with 6 samples.

Results

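Glycolysis and hypoxia response genes were followed in RBL-2H3, a tumour cell line from rat basophilic leukemia with which mast cell responses are often studied. The 39 listed members were looked up by gene symbol, and 34 had a row among the 18286 genes of the expression table. Of these, 22 belong to glycolysis (transporters, enzymes and the enzymes that regulate phosphofructokinase) and 12 to the hypoxia response (components of the oxygen-sensing pathway and targets). Ldhb, Egln1, Egln3, P4ha2 and an entry written Kdm3a_none had no row under those symbols and were not analysed here. The study compared cells treated with dihydrocoumarin (DHC), a lactone related to coumarin, with untreated cells labelled as control, by RNA-seq with 3 libraries in each group. The labels describe 1 shared protocol for all 6 samples, anti-DNP IgE at 50 ng/ml for 12 h followed by the antigen DNP-HSA at 100 ng/ml for 4 h, and do not say separately whether control cells received both. No dose or time of DHC is stated. The labels do not tie libraries to separate cultures, so the p-values reflect library-to-library spread, which may be technical.

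Glycolysis converts glucose to pyruvate in the cytosol, and lactate dehydrogenase then reduces pyruvate to lactate. Hexokinase and phosphofructokinase catalyse its main regulated steps, and most steps have several isozymes encoded by separate genes. When oxygen is low, the transcription factor subunit HIF-1 alpha escapes hydroxylation by prolyl hydroxylases and degradation through the von Hippel-Lindau protein, and raises transcription of glycolytic genes and of genes for mitochondrial turnover, vessel growth and collagen modification. Because that control acts mainly on the protein, the mRNA level of Hif1a does not report HIF activity. Mast cells are known to draw on glycolysis for degranulation and cytokine release after IgE receptor engagement.

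The libraries held between 29190987 and 31299551 reads assigned to genes with DHC, and between 29084976 and 34170922 in controls. Values are RPKM, reads per kilobase of exon scaled to the assigned reads of each library. Of 13 listed mast cell markers 11 had a row, and they summed to between 1005 and 1023 RPKM with DHC, against 1247 to 1303 RPKM in controls. Most of that gap was 1 transcription factor gene, Gata2, at 69.9 RPKM with DHC, against 345 RPKM in controls. Of the 9 tested markers 3 were lower and 1 higher: the growth factor receptor gene Kit averaged 64.4 RPKM with DHC, against 115 RPKM in controls, while Ms4a2, for the beta chain of the IgE receptor, averaged 369 RPKM with DHC, against 321 RPKM in controls. Of 18 markers of other cell types 10 had a row, 7 of them averaging under 1 RPKM and none at 0 in every library. They summed to between 44.7 and 48.5 RPKM with DHC, against 35.0 to 41.7 RPKM in controls, and the T cell gene Cd3e alone averaged 41.8 RPKM with DHC, against 34.6 RPKM in controls. Reads of the mitochondrial chromosome made up 3.91% to 4.14% with DHC, against 3.34% to 3.53% in controls, and the part of these differences in the results was not tested. In bulk RNA, fewer cells that express a gene and less RNA per cell cannot be told apart. The 2 libraries numbered 1 deviated together from their group means (r = 0.23 across the 10667 genes tested). Results are also given without them for members whose call that changes, and for some lists and other genes.

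With DHC, 1 of 18 tested glycolysis members was higher and 2 were lower, all of them at the entry of glucose into the pathway, and no enzyme from aldolase to lactate dehydrogenase passed the test. Of 11 tested hypoxia response members 2 were higher and 3 lower, among them Hif1a and Ndrg1, the tested member with the largest log2 change. A member passed when its adjusted p, from limma over the 10667 genes averaging 1 RPKM or more, was below 0.05. By the same rule 34.5% of all genes tested passed, 18.4% as higher and 16.1% as lower with DHC (1968 and 1717 genes). The shares were 16.7% of glycolysis and 45.5% of hypoxia members, both over few genes, and both moved with the settings of the test. The hypoxia share was 27.3% without control library 2 (25.1% of all genes tested) and 63.6% with limma-voom on recovered reads (39.8%). Scaling by trimmed means, which allows for the composition of the libraries, gave 1284 higher and 2115 lower genes, 5 lower and none higher among the glycolysis members, and again 2 higher and 3 lower hypoxia members. Without control library 2, 1 hypoxia member was higher and 2 were lower. The median log2 fold change was 0.00 over the 18 glycolysis members, 0.13 over the 11 hypoxia members and 0.05 over all genes. The groups did not overlap in 9 of 18 glycolysis members and 6 of 11 hypoxia members, close to the 49.7% of all genes tested.

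Promoter windows (300 bases that end shortly after the annotated start, RefSeq, build GRCr8, each on the strand of its gene) were given for 30 of the 34 members with a row, 35 windows in all. They were searched on both strands for ACGTG, a form of the core of the element that HIF binds. It was in 19 of the 35 windows (54.3%), against 19.3% of all 33469 windows in the table. The other form of the core, GCGTG, was in 40.0% of the members' windows and 29.7% of all windows. Either form was in 62.9% of the members' windows and 41.6% of all windows. The E-box CACGTG, bound by MYC among others, was in 14.3% of the members' windows and 6.42% of all windows. CACGTG contains ACGTG on both strands and so counts as 2 overlapping matches of it. The 4 windows below show a transporter and an enzyme of glycolysis, HIF-1 alpha and the hypoxia target Ankrd37, with ACGTG on either strand in capitals.
Slc2a1, chr5:138002272-138002571, plus strand: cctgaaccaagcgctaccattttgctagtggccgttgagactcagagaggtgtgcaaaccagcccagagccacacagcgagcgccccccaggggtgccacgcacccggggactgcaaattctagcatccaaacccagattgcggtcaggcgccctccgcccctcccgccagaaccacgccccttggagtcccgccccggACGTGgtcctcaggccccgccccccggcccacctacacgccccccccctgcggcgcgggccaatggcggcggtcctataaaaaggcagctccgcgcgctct
Ldha, chr1:106507842-106508141, plus strand: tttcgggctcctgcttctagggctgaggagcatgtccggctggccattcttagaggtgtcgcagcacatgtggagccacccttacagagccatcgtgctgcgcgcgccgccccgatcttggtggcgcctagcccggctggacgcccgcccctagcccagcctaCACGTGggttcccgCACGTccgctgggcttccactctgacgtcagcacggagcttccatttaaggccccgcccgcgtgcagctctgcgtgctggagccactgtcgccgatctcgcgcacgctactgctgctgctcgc
Hif1a, chr6:98359648-98359947, plus strand: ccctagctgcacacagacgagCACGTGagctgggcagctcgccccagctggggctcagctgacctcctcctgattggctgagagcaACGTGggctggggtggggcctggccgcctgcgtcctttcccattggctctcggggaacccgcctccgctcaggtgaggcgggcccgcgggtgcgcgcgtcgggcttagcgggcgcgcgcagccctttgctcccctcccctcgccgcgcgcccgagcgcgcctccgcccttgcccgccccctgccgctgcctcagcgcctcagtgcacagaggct
Ankrd37, chr16:53001257-53001556, plus strand: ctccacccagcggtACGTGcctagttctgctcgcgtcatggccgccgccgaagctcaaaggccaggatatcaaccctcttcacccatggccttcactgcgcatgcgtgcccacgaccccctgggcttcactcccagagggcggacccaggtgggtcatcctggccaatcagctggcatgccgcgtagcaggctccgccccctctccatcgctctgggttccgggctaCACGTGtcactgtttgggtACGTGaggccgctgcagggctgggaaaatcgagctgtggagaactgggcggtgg
The Ankrd37 window held 4 matches, those of Ldha and Hif1a 3 each and that of Slc2a1 1. In the windows of Vhl and Egln2 there was none, and of the 2 windows of Hk1 1 held a match. Among members that did not pass the test, 13 of 23 windows held ACGTG (56.5%), against 2 of 3 windows of the higher and 2 of 4 of the lower members. A match is a description of the letters only. The list holds genes known as HIF targets, so a higher share of the core in its windows was likely from the start. The windows were not matched for base composition, and HIF binding was not tested.

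Both tested glucose transporter genes passed, in opposite directions. Slc2a3, which encodes the high-affinity transporter GLUT3, stood at 39.6, 36.5 and 38.7 RPKM with DHC, against 57.7, 59.7 and 59.9 RPKM in controls. Every DHC library was below every control library, and Slc2a3 fell by 0.61 ± 0.05 on the log2 scale (SE, n = 3 each, adjusted p = 0.000119), with control 1.54-fold above DHC. Its exons span chromosome 4, 155408233 to 155631856 on the minus strand (Rnor_6.0), a span of 223624 bases that the table gives to this symbol. Slc2a1, which encodes the widely expressed transporter GLUT1, lay at 15.8, 17.2 and 15.4 RPKM with DHC, against 13.2, 14.5 and 13.8 RPKM in controls (chromosome 5, 138154673 to 138182897). It was higher by 0.21 ± 0.07 (adjusted p = 0.0457), but it did not pass in any of the 6 fits that left out 1 library (0.0626 to 0.152), or with libraries scaled by trimmed means (0.138) or median-of-ratios factors (0.0941), and gave 0.12 without both libraries numbered 1. Within the summed RPKM of the pair, Slc2a3 held 71.5%, 68.0% and 71.5% with DHC, against 81.3%, 80.4% and 81.3% in controls. This share, which no scaling of libraries can move, was lower by 10.7 percentage points with DHC, and leaving out any 1 library gave a difference between 9.50 and 11.3 points. Slc16a3, a lactate exporter gene, was nearly silent, with 14, 13 and 9 reads with DHC, against 10, 8 and 9 reads in controls. Slc16a1, another lactate transporter gene and not a member, averaged 77.1 ± 2.78 RPKM with DHC and 69.9 ± 4.09 RPKM in controls. It did not pass (adjusted p = 0.0904) and is named after its values were seen.

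**Figure D1:**
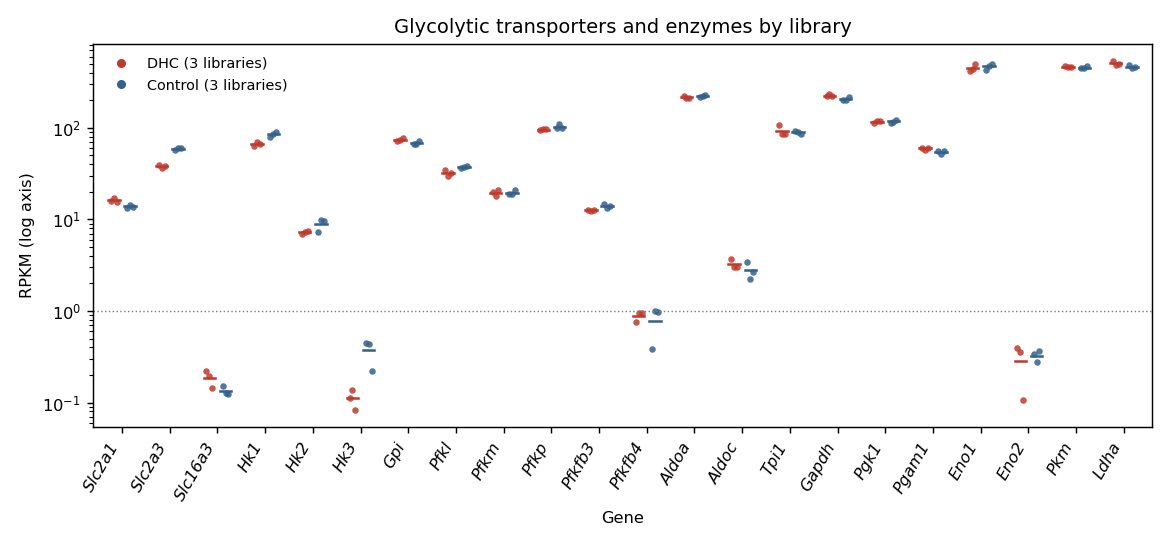
RPKM of the 22 glycolysis members in each library, on a log axis, with DHC libraries left of control libraries and the group mean as a bar; the dotted line marks 1 RPKM, the mean below which a gene was not tested. Slc2a3 and Hk1 stand lower with DHC, and the enzymes from Aldoa to Ldha lie close together in both groups.

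Hexokinases trap glucose in the cell as glucose 6-phosphate. Hk1, the form of most tissues and the main one here, stood at 62.6, 69.9 and 67.1 RPKM with DHC, against 80.1, 84.7 and 89.1 RPKM in controls. The groups did not overlap, and Hk1 fell by 0.34 ± 0.06 on the log2 scale (adjusted p = 0.00412; chromosome 20, 31912262 to 31956649). Hk2, the inducible form and a known HIF target, lay at 6.94, 7.31 and 7.47 RPKM with DHC, against 7.32, 9.80 and 9.70 RPKM in controls. The groups met at control library 1, and the difference of −0.26 (95% interval −0.52 to −0.01, not adjusted) did not pass (adjusted p = 0.104). It passed without control library 1 (0.0104), without both libraries numbered 1 (0.0193) and with limma-voom on recovered reads (0.0266). Hk3, the form of white blood cells, lay under the limit for testing with 11, 14 and 8 reads with DHC, against 45, 42 and 25 reads in controls. Its ratio of DHC to control was 0.307 with a counting interval of 0.201 to 0.456 (95%, exact, counting error only, not the spread between libraries), and with no limit on low values it passed as lower (adjusted p = 0.0437). Hk1 made up 90.0% ± 0.286 of the hexokinase RPKM with DHC and 90.1% ± 0.979 in controls (SD, n = 3 each). Gpi, which isomerises glucose 6-phosphate, averaged 74.4 ± 3.59 RPKM with DHC and 67.9 ± 2.85 RPKM in controls, a difference of 0.13 that did not pass (0.1).

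**Figure D2:**
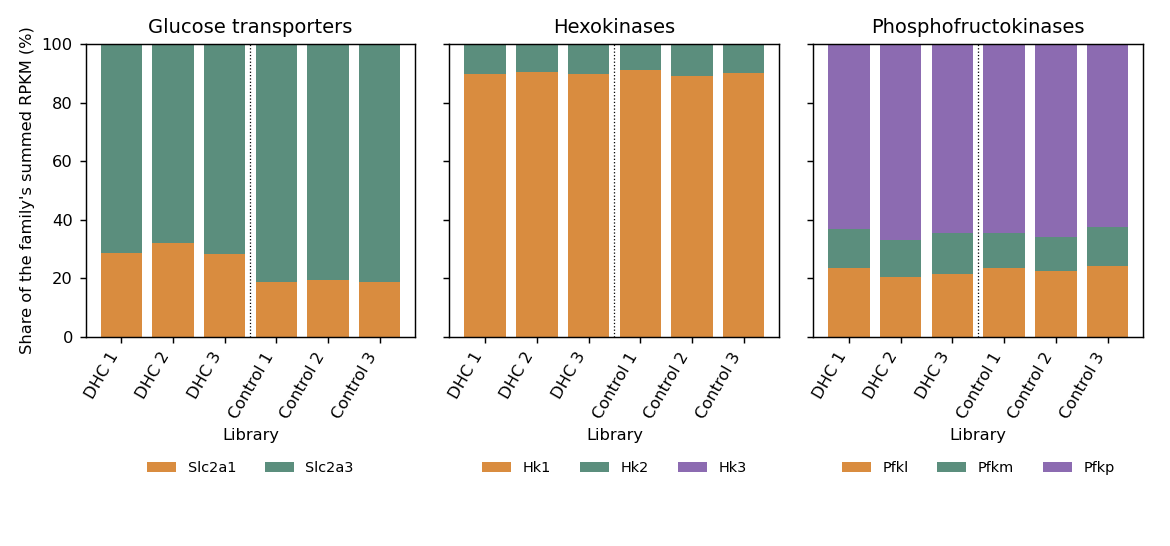
Share of each isozyme in the summed RPKM of its family, in percent, for glucose transporters, hexokinases and phosphofructokinases, with the 3 DHC libraries left of the 3 control libraries. Slc2a3 holds 68.0% to 71.5% of its pair with DHC and 80.4% to 81.3% in controls, while Hk1 holds about the same share in both groups.

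Phosphofructokinase commits sugar to glycolysis, and its platelet form Pfkp was the most abundant of the 3 isozyme genes. None of them passed the test. Pfkp stood at 93.8, 96.8 and 96.5 RPKM with DHC, against 99.6, 109 and 99.9 RPKM in controls, and the liver form Pfkl at 35.0, 29.5 and 31.9 RPKM with DHC, against 36.1, 36.9 and 38.6 RPKM in controls. In both genes every DHC library lay below every control library, by 0.10 for Pfkp (adjusted p = 0.15) and 0.21 for Pfkl (0.0511). Under scaling by trimmed means both passed as lower, with adjusted p of 0.0364 for Pfkp and 0.0217 for Pfkl. Pfkl also passed without DHC library 1 (0.0175), without both libraries numbered 1 (0.0198) and with limma-voom (0.0185). It passed as well with median-of-ratios factors (0.0305), correction for gene length (0.038), a limit of 5 RPKM (0.0431) and the replicate block (0.0481). The muscle form Pfkm averaged 19.7 ± 1.32 RPKM with DHC and 19.6 ± 1.28 RPKM in controls, with a 95% interval of −0.16 to 0.17 for the log2 difference. Pfkfb3, whose product makes the phosphofructokinase activator fructose 2,6-bisphosphate, averaged 12.7 ± 0.145 RPKM with DHC and 13.9 ± 0.738 RPKM in controls, a difference of −0.13 (0.141) that passed under scaling by trimmed means (0.046). Its relative Pfkfb4 had 46, 61 and 57 reads with DHC, against 24, 59 and 68 reads in controls, and was not tested. The Pfkl share of phosphofructokinase RPKM was 21.8% ± 1.60 with DHC and 23.3% ± 0.907 in controls, with overlapping groups.

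The steps from aldolase to lactate dehydrogenase held the most abundant mRNAs of the pathway and differed little. Of their 9 tested members none passed, and the log2 differences ran from −0.05 for Eno1 to 0.18 for Aldoc, the least abundant of them. Ldha, which reduces pyruvate to lactate, stood at 532, 487 and 496 RPKM with DHC, against 482, 453 and 464 RPKM in controls. Its 3 DHC values were just above the controls, with a difference of 0.11 (95% interval 0.00 to 0.23, adjusted p = 0.105). Gapdh, often used as an unchanging standard, stood at 223, 233 and 221 RPKM with DHC, against 200, 202 and 215 RPKM in controls, also without overlap (0.13, interval 0.03 to 0.24, adjusted p = 0.0547). It passed without control library 3 (0.0489), with a limit of 5 RPKM (0.0496) and with the replicate block (0.0412). Pgam1, the phosphoglycerate mutase gene, averaged 59.6 ± 1.59 RPKM with DHC and 54.5 ± 2.81 RPKM in controls (0.13, adjusted p = 0.101). The pyruvate kinase gene Pkm averaged 466 ± 5.95 RPKM with DHC and 455 ± 12.2 RPKM in controls, with an interval of −0.05 to 0.13, and its sign turned with trimmed means (−0.03) and median-of-ratios factors (−0.01). The enolase gene Eno1 stood at 419, 443 and 495 RPKM with DHC, against 433, 478 and 495 RPKM in controls, a spread within groups that exceeded the difference between them. Pgk1, for phosphoglycerate kinase, averaged 117 ± 2.26 RPKM with DHC and 117 ± 4.94 RPKM in controls (interval −0.11 to 0.10). Aldoa, the main aldolase gene, averaged 215 ± 5.91 RPKM with DHC and 223 ± 6.70 RPKM in controls (interval −0.15 to 0.05), and Tpi1, for triose phosphate isomerase, 92.1 ± 12.4 RPKM with DHC and 89.5 ± 4.18 RPKM in controls. Aldoc averaged 3.27 ± 0.392 RPKM with DHC and 2.78 ± 0.594 RPKM in controls, and the neuronal enolase gene Eno2 had 26, 25 and 7 reads with DHC, against 23, 18 and 28 reads in controls. Several of these genes have processed pseudogenes in the rat genome, so reads may have been split with such copies and these values are uncertain.

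Summed over the 22 glycolysis members, mRNA came to 2512, 2466 and 2523 RPKM with DHC, against 2439, 2480 and 2558 RPKM in controls. The groups overlapped, and the means differed by 7.82 RPKM, less than the spread between libraries of a group (SD 30.3 with DHC and 60.3 in controls). Ldha, Eno1 and Pkm made up 56.9% of the sum with DHC and 55.8% in controls, so the sum says little of the transporters and hexokinases. Its sign depends on the scaling, at −108 RPKM under trimmed means and −69.8 RPKM under median-of-ratios factors.

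Of the 5 listed components of the oxygen-sensing pathway 3 had a row, and all 3 passed, against 34.5% of all genes tested. Egln1 and Egln3 had none. Hif1a, which encodes HIF-1 alpha, stood at 88.6, 86.4 and 83.2 RPKM with DHC, against 138, 135 and 129 RPKM in controls. The groups were far apart, and Hif1a fell by 0.63 ± 0.05 (adjusted p = 7.99e-05), with control 1.56-fold above DHC (chromosome 6, 96810907 to 96856052, plus strand). Vhl, for the von Hippel-Lindau protein that marks HIF-1 alpha for degradation, lay at 7.98, 8.71 and 7.90 RPKM with DHC, against 5.92, 6.34 and 6.41 RPKM in controls, and was 1.32-fold higher (0.35 ± 0.07, adjusted p = 0.00895; chromosome 4, 145580799 to 145587845). Egln2, which encodes the prolyl hydroxylase PHD1, lay at 8.55, 8.55 and 8.34 RPKM with DHC, against 9.88, 10.7 and 10.7 RPKM in controls. It fell by 0.27 ± 0.06 (adjusted p = 0.0156), a call that ended without control library 2 (0.0581), control library 3 (0.053) or DHC library 3 (0.0507). Egln2 shares 103 exon bases with Cyp2t1 on the opposite strand, a gene that averaged 0.865 RPKM. Hif1a and Vhl kept their direction and passed under all 17 alternatives.

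**Figure D3:**
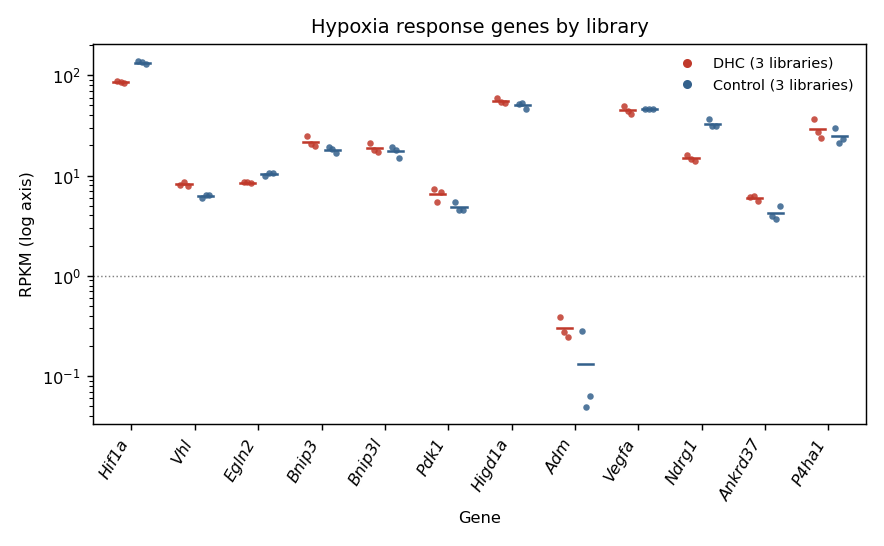
RPKM of the 12 hypoxia response members in each library, on a log axis, with DHC libraries left of control libraries and the group mean as a bar; the dotted line marks 1 RPKM. Hif1a and Ndrg1 stand lower with DHC and Vhl and Ankrd37 higher, while Vegfa and P4ha1 overlap between groups.

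Of the hypoxia targets that passed, each moved in its own direction. Of 8 tested targets 1 was higher and 1 lower (25%, below the 34.5% of all genes tested). Ndrg1, a stress and differentiation gene that hypoxia induces in many cell types, stood at 16.2, 14.6 and 14.1 RPKM with DHC, against 36.4, 31.2 and 30.9 RPKM in controls. It fell by 1.08 ± 0.08 (adjusted p = 9.06e-05; chromosome 7, 107734299 to 107775706, minus strand), with control 2.20-fold above DHC, and leaving out any 1 library gave between −1.14 and −1.01. Ankrd37, a small ankyrin repeat gene whose window is shown above, lay at 6.07, 6.27 and 5.58 RPKM with DHC, against 3.98, 3.67 and 4.93 RPKM in controls. Every DHC library exceeded every control library, and it was 1.42-fold higher (0.43 ± 0.11, adjusted p = 0.0183; chromosome 16, 49462889 to 49465888). The call ended without control library 1 (0.0508), control library 2 (0.0592) or DHC library 2 (0.0671), and without both libraries numbered 1 (0.0954).

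**Figure D4:**
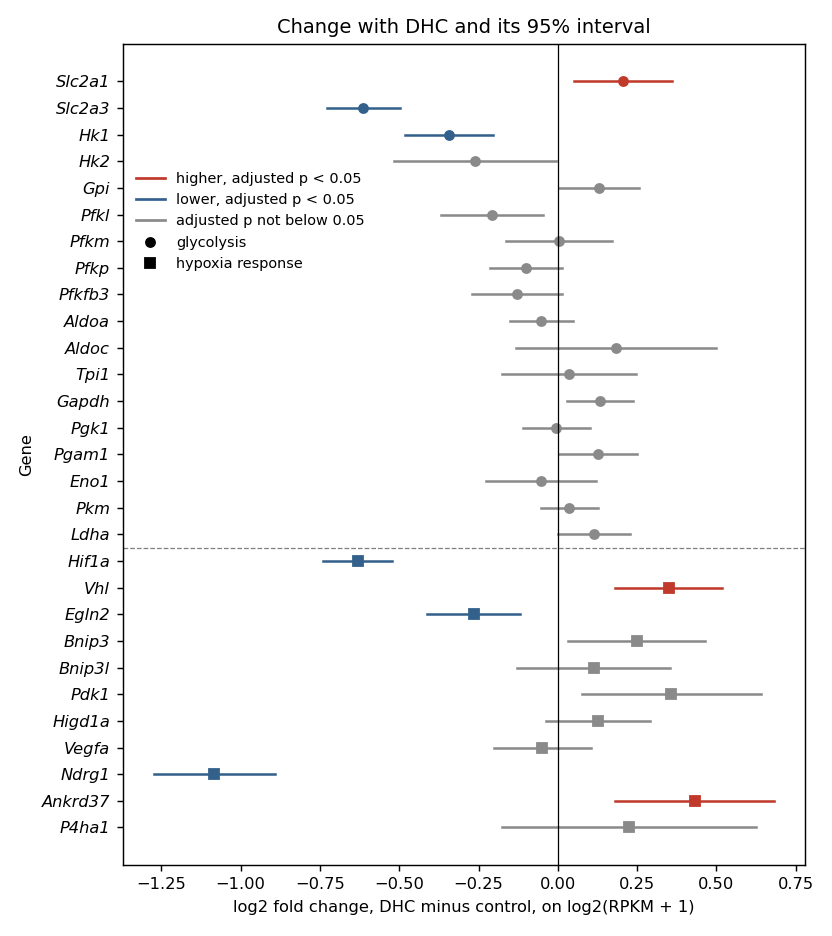
Log2 fold change of the 29 tested members, DHC minus control on log2(RPKM + 1), with unadjusted 95% intervals from limma and glycolysis above the dashed line. Ndrg1 at −1.08, Hif1a at −0.63 and Slc2a3 at −0.61 lie farthest from 0.

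The 4 targets that act at mitochondria had slightly higher means with DHC, and none passed. Pdk1, whose kinase holds pyruvate back from the mitochondrion, lay at 7.38, 5.40 and 6.83 RPKM with DHC, against 5.49, 4.53 and 4.58 RPKM in controls (0.36, 95% interval 0.07 to 0.64, adjusted p = 0.0549). It passed without control library 1 (0.046), without DHC library 2 (0.0247), and with limma-voom (0.0355), a limit of 5 RPKM (0.0489) and the replicate block (0.0241). Bnip3, a receptor for mitochondrial removal by autophagy, lay at 24.8, 20.7 and 19.9 RPKM with DHC, against 19.2, 18.6 and 16.7 RPKM in controls, without overlap (0.25, interval 0.03 to 0.46, adjusted p = 0.0752). Bnip3 passed with limma-voom (0.0347) and with the replicate block (0.021). Its relative Bnip3l averaged 18.9 ± 1.94 RPKM with DHC and 17.4 ± 2.08 RPKM in controls, and Higd1a, a protein of the respiratory chain complexes, 55.0 ± 3.40 RPKM with DHC and 50.4 ± 3.72 RPKM in controls. Vegfa, the vessel growth factor gene, stood at 48.9, 44.2 and 41.0 RPKM with DHC, against 46.2, 45.9 and 46.4 RPKM in controls (interval −0.20 to 0.10). P4ha1, a collagen prolyl hydroxylase gene, lay at 36.8, 27.4 and 23.6 RPKM with DHC, against 29.7, 21.2 and 23.4 RPKM in controls (interval −0.18 to 0.63). The peptide hormone gene Adm had 16, 12 and 10 reads with DHC, against 12, 2 and 3 reads in controls, and was not tested. In 6 of the 11 tested hypoxia members (Hif1a, Bnip3, Bnip3l, Pdk1, Ndrg1 and P4ha1) the library numbered 1 was the highest of its group in both groups, as in 4 of 18 glycolysis members and 22.7% of all genes tested. This count was made after the values were seen, and its part in the intervals of these genes, which differ in width, was not tested.

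Genes beside the pathway were taken from lists of 196 genes outside the members, of which 140 were tested, 22 higher and 21 lower (30.7%, near the background). Of 14 other glycolytic genes 3 were higher and 1 lower (28.6%, against 34.5% of all genes tested). Without DHC library 2 the count was 2 higher and none lower. Bpgm, for a mutase that makes 2,3-bisphosphoglycerate, averaged 12.7 ± 0.450 RPKM with DHC and 8.96 ± 0.990 RPKM in controls (0.46, adjusted p = 0.00544), and Slc2a6, a lysosomal hexose transporter gene, 7.88 ± 0.575 RPKM with DHC and 5.68 ± 0.493 RPKM in controls (0.00976). Tigar, whose product lowers fructose 2,6-bisphosphate, averaged 17.5 ± 3.50 RPKM with DHC and 25.1 ± 0.792 RPKM in controls (0.0147, but 0.0545 without DHC library 2). Pfkfb2, a relative of Pfkfb3, was 1.28-fold higher (0.0342), and of the 6 fits that left out a library only that without control library 1 kept the call, the others giving 0.0663 to 0.0997, and 0.0817 resulted without both libraries numbered 1. Of 9 tested pentose phosphate genes none passed in the main limma fit, and 2 were higher with limma-voom. With limma, 1 was higher without control library 1, control library 2 or both libraries numbered 1, and with the replicate block. At an unadjusted p under 0.05, the main limma fit had 2 of the 9 genes, Pgls (0.0286) and Rpe (0.0378), named after their values were seen.

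Of 13 genes of pyruvate entry into mitochondria 4 were higher and none lower, and of 21 genes around the tricarboxylic acid cycle 6 were higher and none lower. These shares of 30.8% and 28.6% were near or below the 34.5% of all genes tested that passed in either direction. The calls in both lists were all higher, and 18.4% of all genes tested passed as higher. The count around the cycle fell to 2 without DHC library 3, to 3 without control library 1, control library 2, DHC library 2 or both libraries numbered 1, and to 4 without control library 3. That of pyruvate entry was 5 without both libraries numbered 1, and 3 without control library 2, control library 3 or DHC library 2. Mpc1, a subunit of the mitochondrial pyruvate carrier, averaged 41.1 ± 3.06 RPKM with DHC and 31.5 ± 1.28 RPKM in controls (0.37, adjusted p = 0.00441). Pdhx, Dlat and Pdhb, subunits of the pyruvate dehydrogenase complex, were 1.28-, 1.31- and 1.26-fold higher (0.00657, 0.0112 and 0.021). The Pdhb call was kept only without control library 1 or DHC library 3, the other 4 fits giving 0.0574 to 0.0731. Idh1 and Mdh1, cytosolic enzymes that share substrates with the cycle, were 1.36- and 1.33-fold higher (0.00307 and 0.00957). Sucla2, for a succinyl-CoA ligase subunit, was 1.23-fold higher (0.0228, but 0.0701 without control library 2, 0.0621 without control library 3, 0.0585 without DHC library 3 and 0.0563 without both libraries numbered 1). Me2, a mitochondrial malic enzyme gene, was 1.25-fold higher (0.0286) and kept its call only without control library 3 or DHC library 1, the other 4 fits giving 0.0667 to 0.0914, and 0.0758 resulted without both libraries numbered 1. Scaling by trimmed means left 2 higher genes around the cycle and kept 4 of pyruvate entry. Reads of the mitochondrial chromosome, as given above, were a larger share with DHC, and a relation to these nuclear genes was not tested.

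Of 23 genes of glycogen and hexose side branches 3 were higher and 2 lower (21.7%, below the 34.5% of all genes tested). Without control library 3, DHC library 3 or both libraries numbered 1 the count was 3 higher and none lower, and without DHC library 1 it was 4 higher and none lower. Pgm3, of the pathway that makes UDP-N-acetylglucosamine, averaged 14.4 ± 0.844 RPKM with DHC and 8.44 ± 0.207 RPKM in controls (0.70, adjusted p = 0.000243). The glycogen branching gene Gbe1, listed among hypoxia targets too, was 1.44-fold higher (0.00502). Pmm2, a phosphomannomutase gene, fell by 0.22 (0.0296), a call kept only without control library 1 or control library 2, the other 4 fits giving 0.0568 to 0.0933, and 0.0616 resulted without both libraries numbered 1.

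Other genes that act on HIF moved both ways, with 3 higher and 4 lower of 19 (36.8%, near the background of 34.5%). The count of 7 fell to 3 without control library 2 and to 4 without control library 3, DHC library 2 or both libraries numbered 1. Cited2, whose product competes with HIF-1 alpha for its coactivators and which is itself induced by hypoxia, stood at 66.3, 56.4 and 51.5 RPKM with DHC, against 167, 169 and 155 RPKM in controls. It fell by 1.48 ± 0.09 (adjusted p = 3.15e-05), a larger log2 change than that of any tested member. Rbx1, a subunit of the ubiquitin ligase that holds the von Hippel-Lindau protein, averaged 148 ± 5.57 RPKM with DHC and 110 ± 10.0 RPKM in controls (0.43, 0.00288). Hif1an, for the asparaginyl hydroxylase of HIF, was lower at 12.1 ± 0.747 RPKM with DHC and 15.4 ± 1.01 RPKM in controls (0.013, but 0.0681 without both libraries numbered 1 and just above 0.05 without control library 2). Arnt, for the partner of HIF-1 alpha, was lower at 72.3 ± 3.43 RPKM with DHC and 82.1 ± 1.18 RPKM in controls (0.024, but 0.0579 without control library 2, 0.0721 without control library 3, 0.0506 without both libraries numbered 1 and 0.09 without DHC library 2).

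Of 30 other hypoxia targets 12 were lower and 3 higher, 50% against the background of 34.5%, with a median log2 fold change of −0.11. Without both libraries numbered 1, 11 were lower and 5 higher, where 31.2% of all genes tested passed. The cell cycle inhibitor gene Cdkn1a averaged 29.7 ± 0.785 RPKM with DHC and 50.2 ± 1.22 RPKM in controls (−0.74, adjusted p = 4.09e-05). Ddit4, an inhibitor of mTOR signalling, averaged 59.0 ± 1.89 RPKM with DHC and 84.1 ± 1.86 RPKM in controls (−0.50, 0.000187), and the chemokine receptor gene Cxcr4 1.05 ± 0.429 RPKM with DHC and 6.03 ± 0.794 RPKM in controls (−1.79, 0.000196). All 3 also respond to signals other than oxygen. Kdm3a, a histone demethylase gene that HIF induces and whose symbol resembles the unmatched member, was 1.25-fold higher at 51.1 ± 1.72 RPKM with DHC and 40.8 ± 1.86 RPKM in controls (0.32, 0.00342), and is named after its value was seen.

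**Figure D5:**
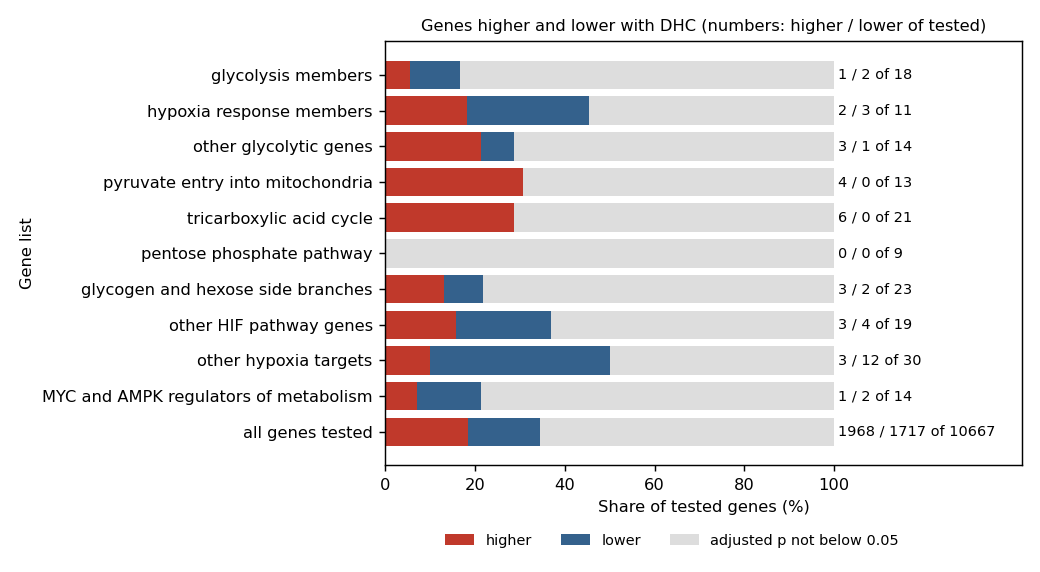
Percent of tested genes called higher or lower with DHC (adjusted p under 0.05), for the members, the 8 lists beside them and all genes, with counts at the right. The bars reach 16.7% for glycolysis members and 34.5% for all genes, and among other hypoxia targets 12 of 30 were lower.

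Of 14 tested regulators of metabolism, mostly of the AMPK and mTOR pathways, 1 was higher and 2 lower (21.4%, below the 34.5% of all genes tested). No MYC family gene was among them, as Mycn had no row and Mycl lay under the limit for testing. Stk11, for the kinase LKB1 that activates AMPK, averaged 40.2 ± 0.766 RPKM with DHC and 49.7 ± 2.40 RPKM in controls (−0.30, adjusted p = 0.00395). Rptor, for the mTOR complex subunit raptor, was lower at 1.84 ± 0.239 RPKM with DHC and 2.98 ± 0.155 RPKM in controls (0.00997, but 0.0569 without both libraries numbered 1). Tsc1, an mTOR inhibitor gene, was 1.33-fold higher (0.0367), a call kept only without control library 1, the other 5 fits giving 0.066 to 0.0971, and lost with trimmed means (0.0594).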

How the data were processed

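RNA of RBL-2H3 cells was sequenced as 3 DHC and 3 control libraries. The submitters' processing notes name the build Rnor_6.0, edgeR 3.12.1, Trimmomatic 0.36 and featureCounts from Subread 1.5.1. Which aligner and annotation were used, and whether counting used strand, is not given in the sources used here. The table deposited by the authors holds 1 RPKM value per gene and library with exon coordinates and length. The unit was inferred from the values: times length they were whole multiples of 1 read (100% within 0.01 read), which gave reads and library totals.

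Differences were tested with limma 3.58.1 (R 4.3.3) on log2(RPKM + 1), with a trended variance, group as the only term, two-sided, and Benjamini-Hochberg adjustment over the 10667 genes averaging 1 RPKM or more. The log2 scale with the pseudocount understates changes of low genes. Fold values are ratios of mean RPKM. Intervals and floors from reads cover counting error only, and 3 reads correspond to 0.0878 to 0.103 RPM. The method was tested on simulated data. Alternatives were pseudocounts of 0.1 and 0.5, limits of none and 5 RPKM, scaling by trimmed means or median-of-ratios factors, limma-voom on recovered reads, robust variances, a replicate block, correction for gene length within libraries, and leaving out each library or both numbered 1. The members and lists were chosen with earlier results of these data known. Named genes were the members and up to 4 genes of lowest p per list among those past the threshold. Some genes that this rule names are left out of the text.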

Additional observations from a re-analysis of the deposited data

How the results depend on the processing

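Under the 17 alternatives the 8 members that passed kept their direction, and Slc2a3, Hk1, Hif1a, Vhl and Ndrg1 passed under each. The glycolysis count of 3 became 5 with a limit of 5 RPKM, 5 with scaling by trimmed means, 5 with limma-voom and 8 with the replicate block. In that order the shares were 29.4%, 27.8%, 27.8% and 44.4%, against 41.2%, 31.9%, 39.8% and 40.6% of all genes tested. The hypoxia count of 5 became 6 with a limit of 5 RPKM (54.5%), and 7 with limma-voom and with the replicate block (63.6% each). Leaving out 1 library gave 2 to 3 glycolysis calls and 3 to 5 hypoxia calls (main 5). The difference in the summed glycolysis level became −108 RPKM with trimmed means and −69.8 RPKM with median-of-ratios factors, against 7.82 RPKM, and lay between −18.9 and 40.5 RPKM without 1 library. Over all genes, trimmed means gave 1284 higher and 2115 lower, median-of-ratios factors 1471 and 1971, and leaving out 1 library 2472 to 3307 calls in all.

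Among members that did not pass, the log2 fold change of Pfkm turned to −0.060 with trimmed means, −0.039 with median-of-ratios factors, −0.018 with correction for gene length and −0.039 without both libraries numbered 1. In that order Tpi1 gave −0.031, −0.0096, −0.0087 and −0.044, and Pkm −0.030 and −0.0083 with the first pair of settings. Leaving out 1 library, Pfkm ranged from −0.037 to 0.054, Tpi1 from −0.072 to 0.091, Pgk1 from −0.032 to 0.027, Eno1 from −0.12 to 0.00082 and Vegfa from −0.11 to 0.0093. The cause of these turns was not tested.

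Same-numbered libraries deviated together only for number 1 (r across genes = 0.23, −0.05 and 0.08 for numbers 1, 2 and 3), and DHC library 2 correlated best with control library 3 (0.11). The numbers were therefore not taken as pairs, and the replicate block raised all calls to 2426 higher and 1907 lower (40.6%). With it 5 glycolysis members were higher and 3 lower (44.4%), among the higher Gpi (0.0305), Gapdh (0.0412), Pgam1 (0.0387) and Ldha (0.0166).

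With 3 libraries a group, differences such as those of Pfkl, Gapdh and Pdk1 lie near the threshold, and their calls change between settings. Slc16a3, Hk3, Pfkfb4, Eno2 and Adm averaged under 1 RPKM and were not tested in the main comparison, and their read numbers carry counting error beside the spread between libraries.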
